A study of Homo sapiens with 14 samples.

Results

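The 7 complex I subunits encoded by mitochondrial DNA were followed as mRNAs: MT-ND1, MT-ND2, MT-ND3, MT-ND4L, MT-ND4, MT-ND5 and MT-ND6. Rows of the deposited profiles were taken as members where the Ensembl transcript carries 1 of these names in GENCODE 44, and all 7 were found in each of the 4 profiles, out of 20512 transcripts in any profile and 10589 in all of them. The samples are K562 cells, an established human leukemia line, probed inside cells (in vivo) or as extracted and refolded RNA (in vitro), with poly(A) enrichment by the methods of the study, while the labels give total RNA. For icSHAPE, NAI-N3 at 100 mM for 5 min acylates flexible 2'-hydroxyls, and the labels list 3 in vivo libraries, 2 in vitro libraries and 3 DMSO controls. For icLASER, NAz-N3 from a 1 M stock with 10 min of UV light marks the solvent-accessible C8 position of purines, and there are 2 libraries in vivo, 2 in vitro and 2 controls labelled as without UV, although their protocol text names the UV step too. The authors pooled replicates and controls into 1 profile per reagent and condition, so every value here is a single pooled value without replicate error, no p-value is given, and the in vivo and in vitro profiles of a reagent share their controls.

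Complex I is the NADH dehydrogenase at the entry of the respiratory chain, and it is assembled from subunits made in the cytosol and a hydrophobic membrane core made inside mitochondria. Mitochondrial mRNAs are cut out of long polycistronic transcripts, largely at the tRNAs that flank them, so that they begin at or next to the start codon, carry no cap and use a start codon set that includes AUA and AUU. MT-ND4L and MT-ND4 lie on a bicistronic mRNA with overlapping reading frames, and MT-ND6, encoded on the light strand, is known to lack a poly(A) tail. MT-ND2, MT-ND4 and MT-ND5 are the large, antiporter-like subunits of the membrane arm, MT-ND1 sits where that arm meets the quinone site, and MT-ND3, MT-ND4L and MT-ND6 are small membrane subunits beside it.

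The first 30 nt of each mRNA are printed because the profiles leave only 6 nt at the 5' end unscored, so that scores begin within the coding sequence, at the third codon. Capitals mark the start codon, all sequences are RNA from 5' to 3', and positions are those of GRCh38.
MT-ND1: AUAcccauggccaaccuccuacuccucauu
MT-ND2: AUUaauccccuggcccaacccgucaucuac
MT-ND3: AUAaacuucgccuuaauuuuaauaaucaac
MT-ND4L: AUGccccucauuuacauaaauauuauacua
MT-ND4: AUGcuaaaacuaaucgucccaacaauuaua
MT-ND5: AUAaccaugcacacuacuauaaccacccua
MT-ND6: AUGauguaugcuuuguuucuguugagugug

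MT-ND1 (ENST00000361390, 956 nt) lies on the plus strand at chrM:3307-4262, 2 nt after MT-TL1. MT-ND2 (ENST00000361453, 1042 nt) lies at chrM:4470-5511 and begins right after MT-TM. MT-ND3 (ENST00000361227, 346 nt) lies at chrM:10059-10404, right after MT-TG. These 3 begin with AUA, AUU and AUA, and their annotated ends leave 2, 1 and 1 nt after the last whole codon. MT-ND4L (ENST00000361335, 297 nt) lies at chrM:10470-10766, right after MT-TR. MT-ND4 (ENST00000361381, 1378 nt) lies at chrM:10760-12137 and shares its first 7 nt with the end of MT-ND4L, so its annotated start is internal to the bicistronic mRNA. MT-ND5 (ENST00000361567, 1812 nt) lies at chrM:12337-14148, right after MT-TL2. MT-ND6 (ENST00000361681, 525 nt) is the member on the minus strand, at chrM:14149-14673, next to MT-TE. The strand is visible in the base composition, since MT-ND6 held 35.6% G and 7.05% C, whereas the other members held 9.5% to 12.1% G and 29.5% to 36% C.

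Several properties of the profiles bear on the values that follow. Of 8 marker genes of erythroid K562 cells, 7 were listed in every profile, with HBG1 at an RPKM of 1225 to 2652 and TAL1 in none, and 0 of 5 markers of other cell types were listed. Scores were scaled within each transcript, so that 5% of the scored nt of a member stood at exactly 1, and a mean score is therefore a level relative to the same mRNA. No read counts come with the scores, and the depth behind them was not analysed here. Nuclear copies of mtDNA, named MTND with a P number, filled 10 or 11 rows per profile, and 58.0% of the 30-nt stretches of MT-ND2 also stood in such a row, against 31.7% for MT-ND6, 28.0% for MT-ND1, 22.8% for MT-ND4, 17.9% for MT-ND4L, 14.2% for MT-ND5 and 3.79% for MT-ND3. The RPKM of MTND2P28 was 969 to 1621 and that of MTND1P23 was 873 to 2211 over the 4 profiles. How reads that fit both were divided is not given in the sources used here, and the values of MT-ND2, MT-ND6 and MT-ND1 are the most open to this. Strand use in counting is likewise not given, which matters for MT-ND6, because its mRNA and transcripts of the opposite strand come from the same positions.

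The first comparison was of RPKM, reads per kilobase of transcript scaled to sequencing depth, which is normalized for length. Whether it counts reads of the treated or of the control libraries is not given in the sources used here, and in reads enriched for the modification, abundance and reactivity cannot be told apart. Of the 7 complex I mRNAs, 5 stood among or above the highest nuclear coding transcripts in every profile, MT-ND5 lay lower, and MT-ND6 lowest. MT-ND3 had an RPKM of 5899 in the icSHAPE in vitro profile, 7596 in the icSHAPE in vivo profile, 4020 in the icLASER in vitro profile and 7547 in the icLASER in vivo profile. In the same order MT-ND4 stood at 3452, 6296, 5682 and 7522. MT-ND4L, from the same bicistronic mRNA as MT-ND4, stood at 3603, 6401, 2931 and 3272. The pair was thus nearly level with NAI-N3 but not with NAz-N3, where MT-ND4L was the lower in both conditions. MT-ND2 stood at 2331, 3757, 3085 and 4781. MT-ND1 stood at 1905, 2658, 2834 and 3796. MT-ND5, which has the longest mRNA of the group, was next to last in each profile, at 693, 928, 727 and 660. MT-ND6 was last in each profile, at 133, 143, 221 and 128. Since poly(A) RNA was enriched and MT-ND6 is known to lack a poly(A) tail, loss by this selection and a low level cannot be told apart. The order of the upper 5 changed between the reagents, and without replicate profiles no spread is at hand by which neighbours could be separated. In bulk RNA, fewer cells with an mRNA and less of it per cell cannot be told apart.

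Set against nuclear genes, the levels were high. Among 6460 to 8702 coding nuclear transcripts per profile, 0 exceeded MT-ND3, MT-ND4L or MT-ND4 in any profile. MT-ND2 was exceeded by 3 of them in the icSHAPE in vitro profile and by 0 in the others, and MT-ND1 by 6, 3, 0 and 0. MT-ND5 was exceeded by 36, 28, 16 and 64, and MT-ND6 by 440, 453, 203 and 571. The median RPKM of the 7 members was 2331, 3757, 2931 and 3796, against 16.6, 18.3, 17.0 and 18.4 for 1185 nuclear-encoded mRNAs with a complete coding sequence and a reference of equal length. RPLP1, a ribosomal stalk protein mRNA and the highest of these 1185, stood at 1932, 2112, 1547 and 2262. Nuclear genes for other subunits of complex I were far lower, with medians of 29.3, 33.9, 27.0 and 33.2 over the 23 of 37 that could be matched. Their highest was NDUFS5, a subunit of the intermembrane-space side, at 194, 199, 194 and 245, which was above MT-ND6 in each profile except icLASER in vitro and below every other member in all 4. The 6 mtDNA mRNAs outside complex I had higher medians than the members, at 5084, 8040, 5884 and 8402, so a high RPKM is not particular to the members.

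Members tended to have a higher RPKM in vivo than in vitro, although by less than 2-fold. With NAI-N3 the ratio in vivo to in vitro was above 1 for all 7, from 1.07 for MT-ND6 to 1.82 for MT-ND4, with a median of 1.4, against a median of 1.09 (5th to 95th percentile 0.809 to 1.41) over the nuclear-encoded mRNAs. MT-ND4 at 1.82, MT-ND4L at 1.78 and MT-ND2 at 1.61 lay above that percentile range. With NAz-N3 the ratios ran from 0.580 for MT-ND6 to 1.88 for MT-ND3, with a median of 1.32, against 1.1 (0.718 to 1.66) over the nuclear-encoded mRNAs. MT-ND5 was lower in vivo with NAz-N3, at a ratio of 0.907, and higher with NAI-N3, at 1.34. The mtDNA mRNAs outside complex I were also higher in vivo, at ratios of 1.42 to 1.83 with NAI-N3 and 1.23 to 1.51 with NAz-N3. By count, 0 of 7 members passed a 2-fold limit in either direction, and of the nuclear-encoded mRNAs 0.0844% were higher and 0.253% lower by this limit with NAI-N3, and 0.422% higher and 0.253% lower with NAz-N3.

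The next comparison set the mean score in vivo beside that in vitro. Since each profile was scaled within each transcript, a ratio of these means compares how the scores are spread over an mRNA in the 2 conditions, and says nothing of its total reactivity. As deposited, mean scores were higher in vivo for all 7 members with NAz-N3 and for 5 of 7 with NAI-N3, where most of the differences were small. These directions depended on the settings. Over A and G alone, the purines that NAz-N3 marks, the icLASER ratio was 0.972 for both MT-ND1 and MT-ND4L and 1.01 for MT-ND5, so that 5 of 7 were above 1. With each profile divided by its mean over nuclear mRNAs, the icSHAPE ratio was 0.865 for MT-ND1, 0.866 for MT-ND3 and 0.858 for MT-ND5, so that 2 of 7 were above 1. MT-ND3 had a mean icLASER score of 0.222 in vitro and 0.274 in vivo, a ratio of 1.23 and the largest of the group. MT-ND2 went from 0.213 to 0.258, a ratio of 1.21, and MT-ND5 from 0.227 to 0.263, a ratio of 1.16. MT-ND4L went from 0.234 to 0.271 (1.15), MT-ND4 from 0.218 to 0.247 (1.13), MT-ND1 from 0.217 to 0.243 (1.12) and MT-ND6 from 0.192 to 0.210 (1.09). A share of 51.5% (MT-ND6) to 62.6% (MT-ND3) of the nt scored in both profiles was higher in vivo. The same direction held for 70.0% of the 1185 nuclear-encoded mRNAs and for 82.8% of the 122 with a mean RPKM of at least 100, whose median ratio was 1.09. It also held, as deposited, for 6 of 6 mtDNA mRNAs outside complex I, at ratios of 1.06 to 1.16 and a median of 1.13. It is therefore not particular to the members.

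With NAI-N3 the small MT-ND6 and MT-ND4L stood apart from the other members. Mean icSHAPE scores of MT-ND6 were 0.174 in vitro and 0.211 in vivo, a ratio of 1.21, and those of MT-ND4L were 0.204 and 0.246, also 1.21. MT-ND1 had 0.196 and 0.201, MT-ND3 had 0.216 and 0.222, and MT-ND5 had 0.217 and 0.221, with ratios between 1.02 and 1.03. MT-ND2 (0.224 and 0.214) and MT-ND4 (0.223 and 0.212) were slightly lower in vivo, at ratios of 0.953 and 0.954. The member median of 1.03 lay below the median of 1.18 over the nuclear-encoded mRNAs, although nearer to the 1.07 of those with a mean RPKM of at least 100. The other 6 mtDNA mRNAs had a median of 1.04. A mean score at least 25% higher or at least 20% lower in vivo was found in 0 of 7 members with either reagent. Of the nuclear-encoded mRNAs, 28.3% were higher in vivo by this limit with NAI-N3 and 5.32% with NAz-N3, and 0% and 1.69% were lower. Of those with a mean RPKM of at least 100, 14.8% and 12.3% were higher and 0% were lower with either reagent.

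The share of scores at 0 differed along with the icLASER means. In vivo, between 5.00% and 6.59% of the scored nt of the 6 members other than MT-ND6 had an icLASER score of 0, against 10.7% to 16.5% in vitro. MT-ND6 had 13.1% and 13.3%. The in vivo shares lay at or near the share set to 1 by the scaling, with both shares at 5.00% in MT-ND1 and at 5.16% in MT-ND3, so they are at a floor and cannot be read as a number of unreactive nt. Among the nuclear-encoded mRNAs the median share of scores at 0 was 40.3% in vivo and 40.6% in vitro, and 17.4% and 27.6% for those with a mean RPKM of at least 100. The members also had the higher RPKM, whose part in this difference from nuclear mRNAs was not tested.

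Base preferences of the 2 reagents were visible within the members. Over the 6 members other than MT-ND6, icLASER scores in vivo averaged 0.463 for G and 0.332 for A, against 0.204 for U and 0.163 for C. In vitro these means were 0.475, 0.317, 0.154 and 0.107. For MT-ND6 the in vivo means were 0.299 for G, 0.197 for A, 0.148 for U and 0.138 for C, in the same order as in the other members although G and U make up most of this mRNA. The icSHAPE scores were ordered more by the following base than by the scored base. In vivo, over the 6 members, the mean icSHAPE score was 0.359 before A and 0.322 before U but 0.0591 before C and 0.0612 before G. At the scored base itself the means were 0.282 for A, 0.249 for U, 0.158 for C and 0.135 for G.

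Codon position was then examined, since coding sequence makes up nearly the whole of these mRNAs. The middle nt of the codon had the lowest mean score in all 7 members and in all 4 profiles. For MT-ND5, the longest, the icSHAPE in vivo means at positions 1, 2 and 3 were 0.259, 0.174 and 0.231, and the icLASER in vivo means were 0.314, 0.205 and 0.271. For MT-ND1 they were 0.224, 0.160 and 0.220 with NAI-N3, and 0.299, 0.166 and 0.263 with NAz-N3. For MT-ND6 they were 0.255, 0.154 and 0.224, and 0.253, 0.153 and 0.225. All 3 mRNAs thus dipped at position 2 with both reagents, and MT-ND1 and MT-ND5 dipped more deeply with NAz-N3. MT-ND3 had the shallowest icSHAPE in vivo dip, at 0.231, 0.205 and 0.229, and MT-ND4L peaked at position 3 with NAI-N3, at 0.249, 0.205 and 0.284.

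The size of the dip can be set against the spread between codons, which is not a replicate error. In vivo the difference of position 1 from position 2 was 0.0846 ± 0.0138 (SE over 592 codons) for MT-ND5 with NAI-N3 and 0.110 ± 0.0153 with NAz-N3. For MT-ND2 it was 0.0756 ± 0.0194 over 335 codons and 0.107 ± 0.0188, and for MT-ND4 0.0518 ± 0.0156 over 447 codons and 0.0746 ± 0.0171. The short mRNAs were less certain with NAI-N3, at 0.0274 ± 0.0327 over 103 codons for MT-ND3 and 0.0436 ± 0.0312 over 87 codons for MT-ND4L, differences of the size of their SE or little more. In vitro with NAI-N3, position 3 minus position 2 was 0.0335 ± 0.0282 for MT-ND3, 0.0330 ± 0.0339 for MT-ND4L, 0.0256 ± 0.0153 for MT-ND4 and 0.0239 ± 0.0197 for MT-ND6. Each is under 2 SE, whereas MT-ND1, MT-ND2 and MT-ND5 were above it. Position 1 minus position 2 was also under 2 SE there for MT-ND3, MT-ND4L (0.0126 ± 0.0276) and MT-ND6 (0.0332 ± 0.0219). When each coding sequence was divided into 3 equal stretches, position 2 was lowest in 18 and 19 of 21 stretches with NAI-N3 in vitro and in vivo, and in 19 and 21 of 21 with NAz-N3.

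This dip is also a property of nuclear mRNAs. Position 2 was lowest as deposited in 65% of the 1185 nuclear-encoded mRNAs in the icSHAPE in vitro profile, 73.5% in icSHAPE in vivo, 85.1% in icLASER in vitro and 85.2% in icLASER in vivo. Among those with a mean RPKM of at least 100, the shares were 75.4%, 82.8%, 86.1% and 88.5%. Their stretches had it lowest in 64.8%, 67.8%, 72.1% and 75.1% of 366. Subtracting from each score the mean of its base and following base, over the members, left position 2 lowest in 7 of 7 members in each profile, against 68%, 76.1%, 64.8% and 66.6% of the nuclear-encoded mRNAs with their own base means taken out. The dip was therefore present in the members with base and next base taken out, and no test separates 7 of 7 from these shares.

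Which position was highest depended on the treatment of base composition. As deposited, position 1 was highest in 4, 6, 6 and 5 of 7 members in the icSHAPE in vitro, icSHAPE in vivo, icLASER in vitro and icLASER in vivo profiles, against 80.5%, 86.8%, 71.5% and 69.5% of nuclear-encoded mRNAs. With base and next base taken out it was highest in 4, 1, 4 and 3 members, against 54.4%, 57.2%, 41.5% and 40% of the nuclear-encoded mRNAs, and position 3 in the remaining 3, 6, 3 and 4, against 36.2%, 35.4%, 47.6% and 50.5%. Moving every score by 1 nt moves the register of the whole pattern by construction, and position 2 was then lowest in 0 to 2 of 7 members. The dip at position 2 therefore holds for the register in which the authors deposited the scores.

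The first codons fell into clearly different levels among members. To compare them, the first 30 scored nt (nt 7 to 36, codons 3 to 12) were set against the rest of the same mRNA. MT-ND4 had the most reactive beginning, with a mean of 0.455 in the icSHAPE in vitro profile, 0.554 in icSHAPE in vivo, 0.717 in icLASER in vitro and 0.638 in icLASER in vivo, against 0.217, 0.205, 0.206 and 0.238 over the rest. The ratios were 2.09, 2.70, 3.48 and 2.68, and none of the 1312 other 30-nt windows of MT-ND4 had a higher mean in any of the 4 profiles. Of these 30 nt, 12, 16, 20 and 17 had a score of at least 0.5. The annotated start of MT-ND4 is internal to the bicistronic mRNA, so this stretch is not beside a 5' end as in the other members. Reads were aligned to annotated transcripts, and any effect of this annotated edge on the scores was not tested. The stretch is shown with capitals at a score of at least 0.5, in the icSHAPE in vivo and then the icLASER in vivo profile, at chrM:10766-10795 on the plus strand.
MT-ND4, icSHAPE: AAACuAAucgucccAacAAUUAUAUUacua
MT-ND4, icLASER: AAACuAAuCGucccAacAAuUAUAuUacUa

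Most of the reactive nt were the same with both reagents, in a run near the start and in an A- and U-rich run later on, with a largely unreactive stretch between them. MT-ND4L was also reactive at its beginning, with means of 0.388 and 0.353 with NAI-N3 in vitro and in vivo and of 0.497 and 0.327 with NAz-N3, and ratios of 2.16, 1.52, 2.48 and 1.24. Its high scores stood in codons 3 to 7, where the mean was 0.579, 0.430, 0.719 and 0.436, against 0.196, 0.276, 0.276 and 0.217 over codons 8 to 12. Its nt 7 to 36 (chrM:10476-10505, plus strand) are marked in the same way.
MT-ND4L, icSHAPE: cucauuUacAuaAAUAuuauacuagcauuU
MT-ND4L, icLASER: cuCauuUaCAuaAaUAuuauacuagcauuu

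The in vivo icSHAPE ratio of MT-ND4L depended on the settings. It was 0.993 with 60 nt in place of 30 nt. After division by the ratio expected from base and next-base means, over the 7 members and the other 6 mtDNA mRNAs, it was 0.958. For MT-ND4 the ratios after that division were 1.55, 2.03, 2.90 and 2.28.

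At the other extreme, MT-ND6, MT-ND2 and MT-ND5 began with codons of low mean score. MT-ND6 had means of 0.0326 and 0.0540 with NAI-N3 in vitro and in vivo, and of 0.0449 and 0.0364 with NAz-N3, against 0.183, 0.221, 0.202 and 0.222 over the rest. None of its other 459 windows was lower in either icLASER profile, and 9 and 6 were lower in the icSHAPE profiles. MT-ND2 had 0.0384, 0.0545, 0.0963 and 0.104, and MT-ND5 had 0.0681, 0.0724, 0.140 and 0.159. The ratios of these 3 mRNAs ran from 0.164 to 0.611 over the 4 profiles. No nt of these 3 mRNAs in this stretch had an icSHAPE score of at least 0.5, in vitro or in vivo. The stretches of MT-ND2 (chrM:4476-4505, plus strand) and MT-ND6 (chrM:14638-14667, minus strand) are printed with capitals at an icLASER in vivo score of at least 0.5. In MT-ND2 a single G, nt 22, is marked, with a score of 1 in both icLASER profiles.
MT-ND2: ccccuggcccaacccGucaucuacucuacc
MT-ND6: uaugcuuuguuucuguugaguguggguuua

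MT-ND1 and MT-ND3 differed by reagent. MT-ND1 was low with NAI-N3, at 0.0283 in vitro and 0.0721 in vivo (ratios 0.140 and 0.351), but near the rest of its mRNA with NAz-N3, at 0.171 and 0.290 (ratios 0.784 and 1.2). MT-ND3 had means of 0.189, 0.142, 0.327 and 0.30 and ratios of 0.864, 0.616, 1.55 and 1.11. Over all members, the first 30 scored nt were at least 25% higher than the rest in 2, 2, 3 and 1 of 7 in the icSHAPE in vitro, icSHAPE in vivo, icLASER in vitro and icLASER in vivo profiles, and at least 20% lower in 4, 5, 4 and 3.

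Nuclear-encoded mRNAs were measured at the same nt from their transcript start and from their start codon. From the transcript start, 63.2%, 57.4%, 72.7% and 55.9% were higher by the same limits and 22.4%, 21.6%, 16% and 25.4% were lower. From the start codon, 43.2%, 41.8%, 50.9% and 34.6% were higher and 31.5%, 26.2%, 25.7% and 35.2% were lower. Among those with a mean RPKM of at least 100, 56.4%, 55.8%, 68.5% and 34.3% were higher and 28.2%, 24.8%, 18.5% and 39.8% lower from the transcript start. From the start codon, 57.9%, 52.9%, 53.3% and 27.5% of these were higher and 24.8%, 18.2%, 26.7% and 35.8% lower. The 3 of 7 members with lower first codons in the icLASER in vivo profile were thus near the share among nuclear mRNAs of high RPKM, and the 4, 5 and 4 of 7 in the other profiles were above it, with no test. For MT-ND2 and MT-ND6 the ratio lay below that of all but 2.32% to 9.95% of nuclear-encoded mRNAs measured from the start codon. MT-ND4 lay above 84.8% to 96.8% of them. Against nuclear-encoded mRNAs measured from the transcript start, MT-ND4 lay above 67.8% to 92.8%, and MT-ND2 and MT-ND6 above 4.98% to 13.1%. Over the other 6 mtDNA mRNAs the ratios ran from 0.861 to 1.77 with NAI-N3 in vitro and 0.654 to 1.85 in vivo. With NAz-N3 they ran from 1.55 to 3.10 in vitro and 1.11 to 1.80 in vivo. A high icLASER in vitro beginning is therefore not particular to the members. MT-ND4 lay above these ranges, and MT-ND2, MT-ND5 and MT-ND6 below them, with no test. Division by base and next base left each member on its side of 1 in each profile, except MT-ND4L with NAI-N3 in vivo, and gave ratios of 0.246 to 0.634 for MT-ND2 and 0.171 to 0.244 for MT-ND6.

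Along the rest of the mRNAs, in vivo and in vitro profiles of a reagent followed each other over most windows, with a few that differed. The 30-nt window with the largest absolute difference was taken for each member and reagent, so that these values describe the windows and were not tested. In MT-ND6 the window at nt 431 to 460 (chrM:14214-14243, minus strand) had the largest icLASER difference of all members, with 0.682 in vitro and 0.375 in vivo. Here icSHAPE differed in the same direction, with 0.562 in vitro and 0.323 in vivo. The icLASER SD over windows was also the widest in MT-ND6, at 0.102 against 0.0542 to 0.0946 in the other members. MT-ND6 also had the lowest RPKM of the group. Capitals mark the 13 nt whose icLASER score differed by at least 0.3.
MT-ND6: cuuuGUaugAUUaugGGcGUUgauUAguaG

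MT-ND2 also held a window that scored lower in vivo with both reagents, at nt 295 to 324 (chrM:4764-4793, plus strand). Its icLASER mean was 0.60 in vitro and 0.344 in vivo, and its icSHAPE mean 0.468 and 0.281. Capitals mark the 12 nt with a difference of at least 0.3 in icLASER.
MT-ND2: auaauaGcuAUagCaaUAAAACuagGaAua

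Near the 3' end of MT-ND4 the reagents differed in opposite directions. At nt 1266 to 1295 (chrM:12025-12054, plus strand), icSHAPE was 0.390 in vitro and 0.194 in vivo, while icLASER was 0.148 and 0.356. The window with the largest icLASER difference, nt 1273 to 1302, overlaps it, at 0.127 in vitro and 0.340 in vivo. Both windows lie in the last stretch of MT-ND4, as divided below. The icLASER mean over that whole stretch was also higher in vivo, at 0.149 in vitro and 0.237 in vivo. Capitals mark the 8 nt with a difference of at least 0.3 in icSHAPE.
MT-ND4: CauUAacAaCAuaaaacccucaUuCacacg

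MT-ND2 showed the same opposition at nt 930 to 959, its largest icSHAPE difference. There icSHAPE was 0.464 in vitro and 0.233 in vivo, and icLASER was 0.272 and 0.419. The icLASER mean over the whole last stretch of MT-ND2 was 0.114 in vitro and 0.234 in vivo. A larger icLASER difference over the last than the first stretch was found in 90.9% of nuclear-encoded mRNAs, as given below. Whether the icLASER differences in these windows of MT-ND4 and MT-ND2 go beyond that wider pattern was not tested. In MT-ND3 and MT-ND4L the windows of largest icSHAPE difference scored higher in vivo with both reagents, at 0.0860 and 0.214 with NAI-N3 for MT-ND3 (nt 207 to 236) and 0.0851 and 0.298 for MT-ND4L (nt 136 to 165). MT-ND1 and MT-ND5 had theirs at nt 667 to 696 (0.416 and 0.237) and nt 1730 to 1759 (0.364 and 0.149). 

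**Figure D1:**
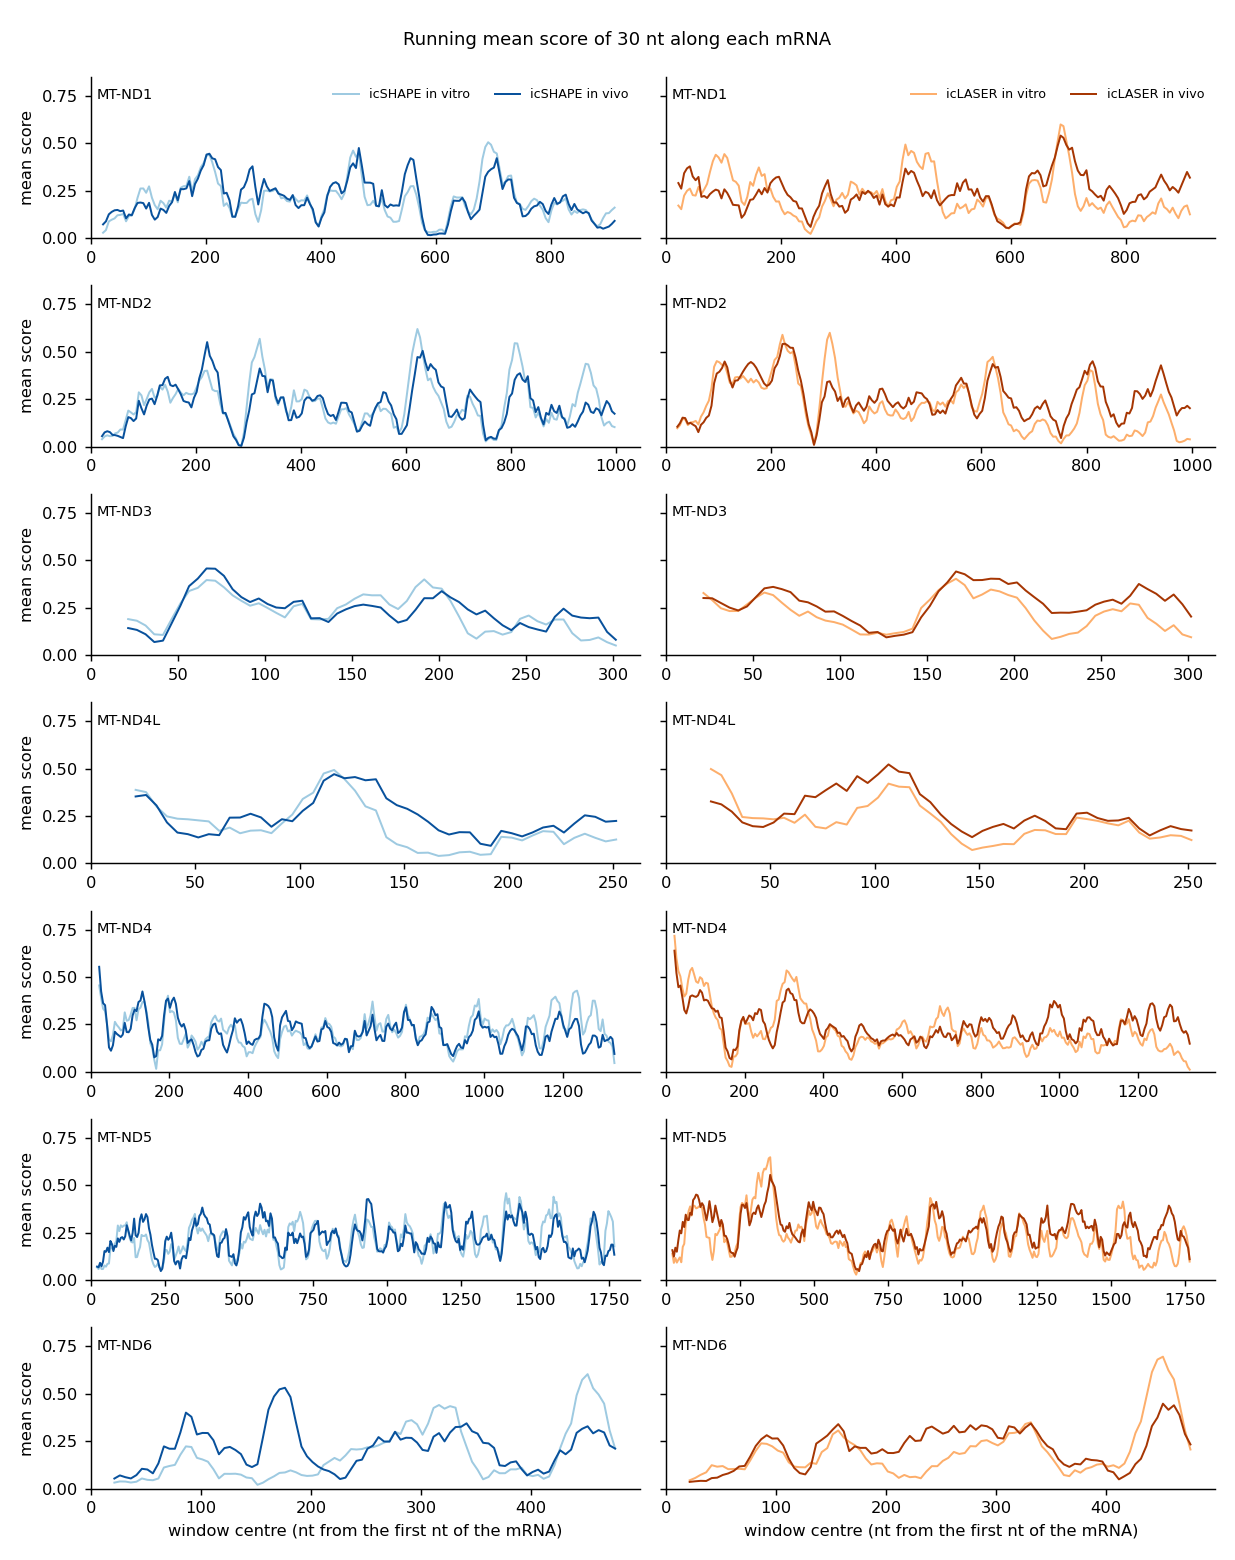
Running mean score of 30 nt along each member, icSHAPE in the left column and icLASER in the right, with the lighter line in vitro and the darker line in vivo. Both reagents peak at the first scored nt of MT-ND4, and the icLASER lines of MT-ND6 part most at nt 431 to 460 (0.682 in vitro, 0.375 in vivo).

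The running means also parted toward the 3' ends with NAz-N3, and each mRNA was therefore divided into 3 equal stretches, a comparison chosen after the profiles were seen. In MT-ND2 the icLASER mean was 0.309 in vitro and 0.290 in vivo over the first stretch, and 0.114 and 0.234 over the last. MT-ND4 had 0.319 and 0.302 over the first, and 0.149 and 0.237 over the last. MT-ND1 had 0.227 in both conditions over the first, and 0.199 and 0.295 over the last. This difference between conditions was larger over the last than the first stretch in 6 of 7 members, and MT-ND6 was the exception, with a last stretch at 0.249 in vitro and 0.199 in vivo. This was near the share of nuclear-encoded mRNAs with the same order, 90.9%, and 95.1% of those with a mean RPKM of at least 100, so it is not a result about the members. With NAI-N3 the order held in 2 of 7 members, MT-ND3 and MT-ND4L, against 48.7% of the nuclear-encoded mRNAs and 62.3% of those with a mean RPKM of at least 100.

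Predicted base pairing, computed from the reference sequences alone with RNAfold at 37 °C, was compared with the scores. The members other than MT-ND6 were predicted to be mostly unpaired, from 56.1% of nt for MT-ND3 to 71.0% for MT-ND2, and MT-ND6 had 34.5%, against a median of 37.4% for the 23 nuclear-encoded complex I mRNAs. The icSHAPE score was higher at unpaired than at paired nt by at least 25% in 5 of 7 members both in vitro and in vivo, against 87% and 69.6% of the nuclear-encoded complex I mRNAs. MT-ND4L had the widest difference, at 0.338 unpaired and 0.136 paired in vivo, a ratio of 2.48, and MT-ND1 followed at 0.248 and 0.122, a ratio of 2.02. MT-ND4 had a ratio of 1.66, MT-ND5 of 1.57 and MT-ND2 of 1.27 in vivo. MT-ND3 at 1.14 and MT-ND6 at 1.06 did not reach the limit, and in vitro MT-ND6 was lower at unpaired nt, at 0.153 against 0.185.

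With NAz-N3 0 of 7 members reached this limit in vitro or in vivo, against 17.4% and 8.7% of the nuclear-encoded complex I mRNAs. The ratios in vivo ran from 0.735 for MT-ND3 to 1.19 for MT-ND4L. In MT-ND3, MT-ND2 and MT-ND5 the icLASER score in vivo was higher at the paired nt, at 0.323 against 0.238, 0.295 against 0.243, and 0.276 against 0.256. The reagents therefore differed in how their scores stood to predicted pairing within the same mRNAs. Base and next base were not taken out of this comparison, and their part in the difference was not tested.

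Finally, the reagents were compared nt by nt within each mRNA. Across the scored nt in vivo, Pearson r between icSHAPE and icLASER was 0.708 for MT-ND2 (1006 nt), 0.688 for MT-ND4 (1342 nt), 0.598 for MT-ND5 (1776 nt), 0.594 for MT-ND1 (920 nt), 0.580 for MT-ND3 (310 nt), 0.573 for MT-ND4L (261 nt) and 0.547 for MT-ND6 (489 nt). In vitro it ran from 0.478 for MT-ND5 to 0.637 for MT-ND2. These are descriptions across nt of 1 mRNA, which share sequence, position and the alignment. The member median of 0.594 in vivo stood beside 0.364 for all nuclear-encoded mRNAs and 0.461 for those with a mean RPKM of at least 100, and in vitro the medians were 0.602, 0.370 and 0.518. The other 6 mtDNA mRNAs had medians of 0.621 in vivo and 0.550 in vitro, near those of the members. Nucleotides with a score of at least 0.5 in both profiles made up 6.95% (MT-ND6) to 10.3% (MT-ND4L) of the scored nt in vivo, which is 2.54 to 4.08 times the product of the separate shares.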

How the data were processed

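K562 libraries treated with NAI-N3 or NAz-N3 and their controls, 14 in all, were grouped by the sample labels. Alignment by the authors was to GRCh38 transcripts of Ensembl release 88, followed by the icSHAPE pipeline with the limits of its last filter set to 0. Trimmomatic and Bowtie2 are named in the submitters' processing notes. They deposited, in 4 profiles that pool replicates and controls, an RPKM value per transcript, and a score per nt, the enrichment over the control scaled to run from 0 to 1. The profiles hold no counts, so depth and counting error were not analysed here.

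From these values, ratios, means by codon position and over windows, and correlations were computed with Python 3.11.15, numpy 2.4.6 and scipy 1.17.1, predicted pairing with RNAfold 2.7.2, and plots with matplotlib 3.10.9. Sequences came from GENCODE 44 by identifier and equal length. Strand use and the treatment of reads with several matches are not given in the sources used here. Nuclear-encoded mRNAs were those in all 4 profiles with a complete coding sequence starting at AUG, with 1 transcript per gene, that of highest mean RPKM. Calls used 2-fold for RPKM and 25% higher or 20% lower for scores, and a score of at least 0.5 counted as reactive. All 7 members were named, with at most 3 other genes per group by highest or lowest value. The measures were tested on simulated data. The members and lists were chosen with earlier results of these data known. Alternatives in fold limits, window length, base composition, register and background were tried. For 1 member, the window of largest icSHAPE difference is not reported here.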

Additional observations from a re-analysis of the deposited data

Results flagged for a closer look

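In 4 cases the in vivo to in vitro ratio of a member lay on opposite sides of 1 with the 2 reagents. The difference between the reagents was not tested, since each ratio rests on 1 pooled profile per condition. For MT-ND2 the mean score ratio was 0.953 with NAI-N3 and 1.21 with NAz-N3, and for MT-ND4 it was 0.954 and 1.13. The icSHAPE differences are small, at -0.0105 and -0.0103 in mean score. For MT-ND5 the RPKM ratio was 1.34 with NAI-N3 and 0.907 with NAz-N3. MT-ND6 had an RPKM ratio of 1.07 with NAI-N3 and 0.580 with NAz-N3, the lowest of the group.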

How the results depend on the processing

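No paired analysis was possible because replicates were pooled before deposit, and for the same reason no replicate could be left out. The icSHAPE in vivo first-codon ratio of MT-ND4L fell on the other side of 1 in 2 settings, at 0.993 with 60 nt and 0.958 after division by base and next base, an alternative chosen after seeing the data, as were ranks, the other mtDNA mRNAs or the mRNAs of high RPKM as background, and both alternatives for the 3 stretches. For RPKM, a 1.5-fold limit gave 3 members higher in vivo with NAI-N3, and 2 higher and 1 lower with NAz-N3. Members with a higher mean score in vivo numbered 1 with NAI-N3 and 2 with NAz-N3 by the share of scores of at least 0.5, 2 and 6 at 1.1-fold, and 1 and 1 without the first and last 30 scored nt. Codon position counts are given in the order icSHAPE in vitro, icSHAPE in vivo, icLASER in vitro and icLASER in vivo. With scores assigned to the next nt downstream, position 2 was lowest in 2, 2, 0 and 0 members, and positions 1, 2 and 3 were highest in 1, 5 and 1, in 2, 4 and 1, in 1, 6 and 0, and in 1, 6 and 0. With scores assigned to the nt upstream, position 2 was lowest in 0, 0, 1 and 0 members, position 1 highest in 0 in each, position 2 in 1, 1, 3 and 4, and position 3 in 6 for icSHAPE in vitro. By raw means position 1 was highest in 6 and position 3 in 1 for icSHAPE in vivo, in 5 and 2 for icLASER in vivo, and position 3 in 1 for icLASER in vitro. With own base alone removed, positions 1 and 3 were highest in 5 and 2 for icSHAPE in vivo and in 2 and 5 for icLASER in vitro. By the share of scores of at least 0.5, positions 1 and 2 were highest in 2 and 1 for icSHAPE in vivo. First codons were higher in 1 member for icSHAPE in vivo with 60 nt and in 1 after division by base and next base. For icLASER in vivo they were higher in 2 with 15 nt, 3 by the share of scores of at least 0.5, 4 at 1.1-fold and 2 after division. With scores assigned to the nt upstream, unpaired nt were higher in 1 member for icLASER in vitro and 1 in vivo. The median r between reagents was 0.649 in vivo and 0.602 in vitro as Spearman rho, and 0.656 and 0.643 over A and G alone. The other 123 counts and medians stayed within 1.5 times. Shares of nuclear-encoded mRNAs at the other fold limits, window lengths and shifts are not given here. The counts of members at these settings therefore show only how the calls move, and cannot be set against nuclear mRNAs. Among values of single members within the limits, some crossed 1. The icSHAPE mean score ratio with each profile divided by its nuclear mean was 0.865 for MT-ND1, 0.866 for MT-ND3 and 0.858 for MT-ND5. The icLASER mean score ratio was 0.972 for MT-ND1 and MT-ND4L over A and G alone, and 0.952 for MT-ND6 by the share of scores of at least 0.5. The first-codon ratio of MT-ND3 was 1.17 with 15 nt and 1.08 with 60 nt for icSHAPE in vitro, and 0.833 by that share for icLASER in vivo. Apart from the shifts, which move the register by construction, the cause of these differences was not tested. Pooled profiles without counts limit every comparison, since no replicate spread can be set beside a difference.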
